A study of Mus musculus with 84 samples.

Results

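The cilium genes Crocc, Rsg1, Dcdc2b, Mns1, Ttc12 and Ift46 were described across 84 RNA sequencing libraries. They are 6 of 43629 genes in the deposited count table and 6 of the 17071 genes with counts high enough to be tested. They were selected from these same data because their measured levels differed between High Drinker and Low Drinker animals, so that difference is described below without a test. Each library came from the ventrolateral striatum, cut out by hand, of 1 naive adult mouse of the SOT and NOT lines at generation 4 (S4) of breeding on ethanol preference and ethanol withdrawal as a dual trait. The High Drinker group held 44 animals (21 females and 23 males) and the Low Drinker group held 40 (18 females and 22 males). No animal had been treated, age is given only as adult, and the labels do not say which group is SOT and which is NOT.

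The cilium is a microtubule-based projection of the cell that grows from a basal body. Most neurons and astrocytes of the striatum carry a single immotile primary cilium, which senses signals from outside the cell. Ependymal cells, which line the ventricle beside the striatum, carry tufts of motile cilia that move cerebrospinal fluid, and their beating needs an axoneme with dynein arms. Crocc encodes rootletin, the main protein of the rootlet that anchors the basal body. Rsg1 encodes a small GTPase that works with the planar polarity effectors in starting cilium growth. Dcdc2b encodes a protein with doublecortin domains, which bind microtubules. Ift46 encodes a subunit of intraflagellar transport complex B, the particle that carries cargo towards the ciliary tip. Ttc12 encodes a factor for the assembly of axonemal dyneins, and Mns1 encodes a filament protein that lies inside the microtubules of motile axonemes.

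Crocc, Rsg1 and Dcdc2b lie on chromosome 4 and Mns1, Ttc12 and Ift46 on chromosome 9, in mm10 coordinates of the deposited table. Crocc (ENSMUSG00000040860) spans chr4:141016637-141060550 on the minus strand. Rsg1 (ENSMUSG00000073733) spans chr4:141213956-141226756 on the plus strand, 0.153 Mb from Crocc. Dcdc2b (ENSMUSG00000078552) spans chr4:129608331-129614257 on the minus strand, 11.4 Mb from Crocc. Ift46 (ENSMUSG00000002031) spans chr9:44767908-44792714 on the plus strand. Ttc12 (ENSMUSG00000040219) spans chr9:49436963-49486225 on the minus strand, 4.64 Mb from Ift46. Mns1 (ENSMUSG00000032221) spans chr9:72438011-72459199 on the plus strand, 22.95 Mb from Ttc12. All 6 are annotated as protein coding, and values here count reads over all exons of a gene, untranslated parts included.

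Exons of Mns1 share 628 bases (24.75% of its exon length) with exons of Tex9 on the opposite strand, and exons of Dcdc2b share 18 bases with Tmem234. The library kits as described do not mark strand, so reads over those bases cannot be assigned to one gene. In the GENCODE M21 transcripts, where the Mns1 models are longer, 2748 of 5360 stretches of 50 bases of Mns1 (51.3%) also occur in Tex9 transcripts. Tex9 differed between lines by 0.05 ± 0.05 (log2 fold change, High Drinker over Low Drinker, ± SE) and Tmem234 by -0.04 ± 0.03. Neither passed the threshold (edgeR adjusted p = 0.665 and 0.406). Crocc, Rsg1, Ttc12 and Ift46 shared no exon base with another gene.

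The start regions of the members were read because genes that move together can share promoter letters. RFX transcription factors, which drive many cilium genes, bind a paired site with the core GTTGCC. That core was searched on both strands of the RefSeq window from 250 bases before to 50 bases after each start (build GRCm38.p6). All 6 members were matched (RefSeq lists Rsg1 as Cplane2), with 7 windows in all because Crocc has 2 start sites. The core was found in the outer Crocc window and in the windows of Rsg1, Dcdc2b and Mns1, which makes 4 of 7. It was not found in these letters in the windows of Ttc12 and Ift46 or in the inner Crocc window. The windows of Mns1 (chr9:72438279-72438578) and Ift46 (chr9:44772759-44773058) lie inside the gene spans of the deposited table, which begin at 72438011 and 44767908. For both genes the RefSeq start is thus an inner one, and the outer start was not searched. Of all 32851 windows of the genome, 12.5% held it. Among windows of other cilium genes it was held by 15 of 39 for motile axoneme genes, 12 of 25 for dyneins and their assembly factors, and 7 of 14 for intraflagellar transport complex B. It was held by 6 of 20 windows of rootlet and basal body genes, 3 of 13 of planar polarity effectors and 3 of 8 of doublecortin family genes. The core forkhead letters TGTTTAC, searched on both strands, were in 0 of the 7 windows and in 3.65% of all windows. The 120 bases before the start are shown for the 4 genes with a match and for Ttc12, the member that tracked ependymal markers most closely below, with the core in capitals. They are chr4:141060546-141060665 (minus strand) for Crocc, chr4:141213836-141213955 (plus) for Rsg1, chr4:129614273-129614392 (minus) for Dcdc2b, chr9:72438409-72438528 (plus) for Mns1 and chr9:49486226-49486345 (minus) for Ttc12.
Crocc: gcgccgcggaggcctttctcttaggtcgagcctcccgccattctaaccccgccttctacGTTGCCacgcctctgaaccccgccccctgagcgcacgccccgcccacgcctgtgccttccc
Rsg1: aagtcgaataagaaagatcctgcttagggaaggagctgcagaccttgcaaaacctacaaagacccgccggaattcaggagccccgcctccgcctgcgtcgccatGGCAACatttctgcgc
Dcdc2b: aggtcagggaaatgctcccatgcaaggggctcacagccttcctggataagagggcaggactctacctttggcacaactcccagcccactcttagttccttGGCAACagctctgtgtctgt
Mns1: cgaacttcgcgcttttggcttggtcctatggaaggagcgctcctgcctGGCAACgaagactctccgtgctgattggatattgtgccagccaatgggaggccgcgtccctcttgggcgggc
Ttc12: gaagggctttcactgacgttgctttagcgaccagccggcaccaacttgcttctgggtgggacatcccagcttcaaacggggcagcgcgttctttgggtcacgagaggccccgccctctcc
The match began 61 bases before the start of Crocc, 16 before that of Rsg1, 20 before that of Dcdc2b and 72 before that of Mns1, whose window holds a second match at base 16 after the start, outside the stretch shown. A match of 6 letters is a description and no evidence of binding.

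Total gene counts per library ran from 22190363 to 41300401 (median 31697635). Library titles carry numbers that run in 3 sets of 48, 30 and 6 libraries. These are called sheet sets here, and the labels do not say what they stand for. High Drinker to Low Drinker libraries were 30 to 18, 11 to 19 and 3 to 3 in the sets. In 1 library, Low Drinker 8, the median correlation with the other libraries was 0.958, below the lower quartile by more than 3 interquartile ranges. Some results are also given without it. Nothing in the labels says that animals are littermates or unrelated, and the tests treat each animal as independent.

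Levels were compared between members in RPKM (reads scaled to exon length and library total), since their exon lengths run from 1371 to 8266 bases. Crocc was the highest on this scale at 12.1 ± 7.94 RPKM (SD, n = 84), and Ift46 followed at 7.80 ± 1.15 RPKM. Dcdc2b had 2.52 ± 1.74 RPKM and Mns1 1.21 ± 0.607 RPKM. Ttc12 had 0.934 ± 0.357 RPKM and Rsg1 0.545 ± 0.269 RPKM. Neighbours in this order lay closer than the larger of their SDs, apart from Ift46 over Dcdc2b and Ttc12 over Rsg1. The members also differed in how much they varied between animals. The coefficient of variation of CPM, counts scaled to the library total, over all animals was 0.69 for Dcdc2b, 0.655 for Crocc, 0.504 for Mns1, 0.494 for Rsg1, 0.382 for Ttc12 and 0.147 for Ift46. Rsg1 was counted at only 10 to 75 reads per library, so counting error takes a larger share of its spread than for Crocc with 805 to 10375 reads.

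The rootlet gene Crocc, the GTPase gene Rsg1 and the doublecortin gene Dcdc2b were higher in High Drinker animals, and Mns1, Ttc12 and Ift46 were lower. Thus all 3 members on chromosome 4 were higher and all 3 on chromosome 9 were lower. Across all tested genes, 1.86% passed the line test (edgeR, adjusted p under 0.05) with a higher level in High Drinker animals and 2.08% with a lower level. Nothing is read from the members against these shares, because the members were taken from among those genes. Tissue RNA cannot tell fewer cells of a type from less RNA per cell for any of these values.

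Crocc had 35.4 CPM in the lowest, 120.3 in the median and 323.2 in the highest High Drinker animal. In Low Drinker animals it had 30.8, 53.6 and 137 CPM. The groups overlapped at the low end, where 25 of 44 High Drinker animals lay within the Low Drinker range, while 19 lay above every Low Drinker animal. The fitted log2 fold change was 1.12 ± 0.15 (SE), which is 2.17-fold.

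Rsg1 had 0.380, 1.246 and 2.502 CPM (lowest, median and highest) in High Drinker animals. In Low Drinker animals these were 0.296, 0.706 and 1.53 CPM. The ranges overlapped for most animals, and 38 of 44 High Drinker animals lay above the Low Drinker median. The log2 fold change was 0.79 ± 0.135 (SE), or 1.725-fold.

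Dcdc2b had 0.852, 4.23 and 8.87 CPM in High Drinker animals. In Low Drinker animals it had 0.470, 1.46 and 5.98 CPM. The values within Low Drinker animals were uneven. Empty stretches were sought only away from the few lowest and few highest animals of each line, where wider ones can occur. In Low Drinker animals 28 lay below and 12 above the widest stretch so found, 0.42 wide on the log2 scale. In High Drinker animals the widest stretch so found, 0.44 wide, had 10 animals below and 34 above. The log2 fold change was 1.03 ± 0.20 (SE).

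Mns1 was lower in High Drinker animals, at 0.837, 2.16 and 4.83 CPM, than in Low Drinker animals, at 1.41, 3.65 and 8.67 CPM. The ranges overlapped for 36 of 44 High Drinker animals. The log2 fold change was -0.70 ± 0.14 (SE).

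Ttc12 had 1.69, 2.98 and 6.80 CPM in High Drinker animals and 1.81, 5.03 and 8.60 CPM in Low Drinker animals. The medians stood apart although 42 of 44 High Drinker animals lay within the Low Drinker range. Above every High Drinker animal lay 5 Low Drinker animals. Of High Drinker animals, 38 of 44 lay below the Low Drinker median, and of Low Drinker animals 39 of 40 lay above the High Drinker median. The log2 fold change was -0.63 ± 0.10 (SE).

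Ift46 had 33.4, 39.4 and 53.1 CPM in High Drinker animals and 37.2, 48.7 and 64.35 CPM in Low Drinker animals. Its difference was the smallest of the 6, with a log2 fold change of -0.27 ± 0.04 (SE), or 0.829-fold. Of High Drinker animals, 43 of 44 lay below the Low Drinker median, and of Low Drinker animals 36 of 40 lay above the High Drinker median.

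**Figure D1:**
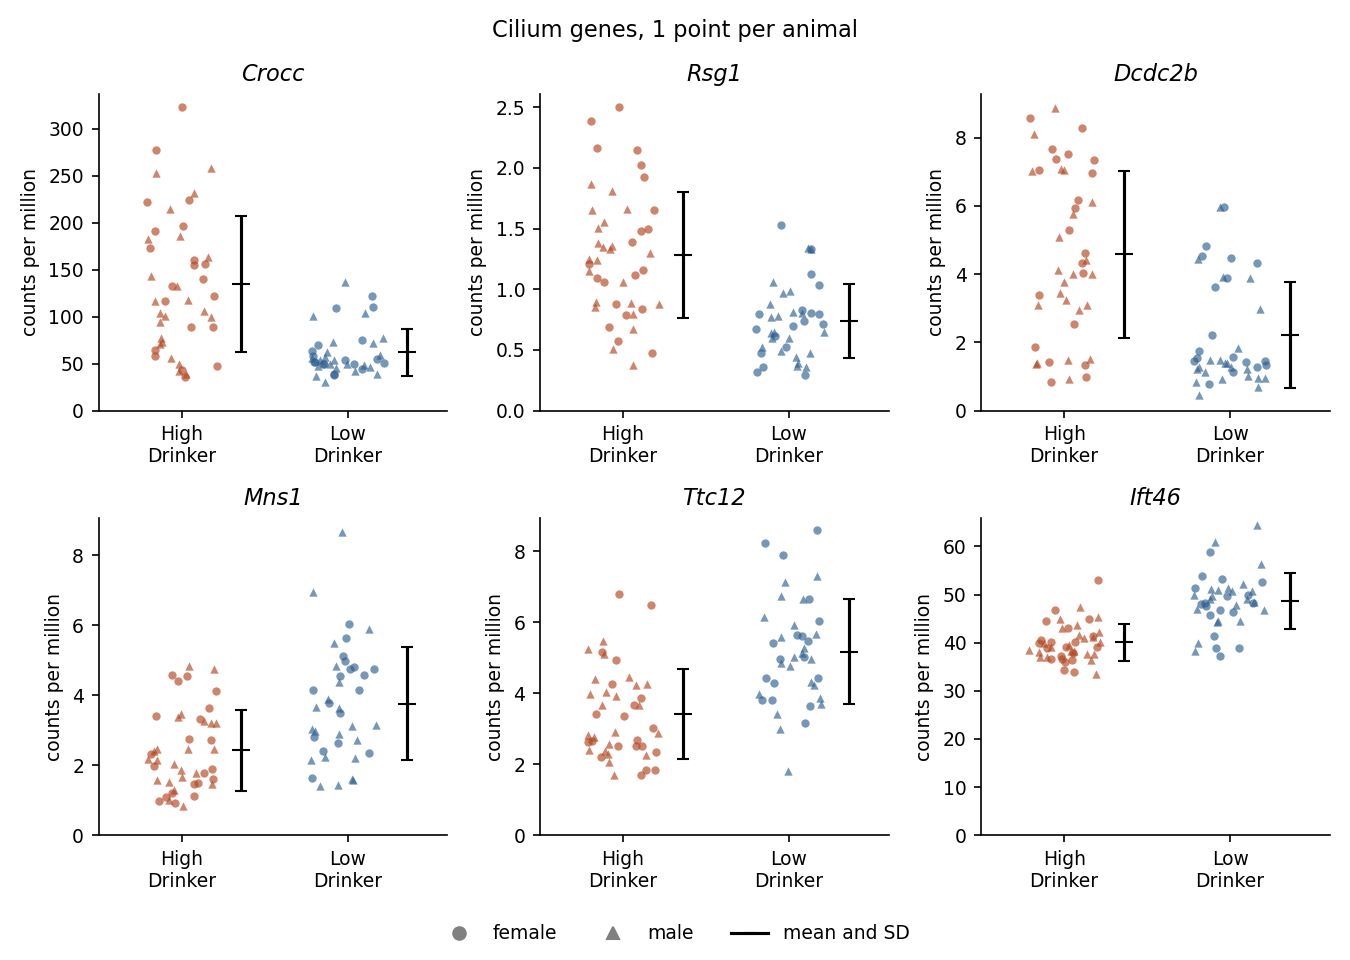
CPM of each member on a linear axis from 0, with 1 point per animal (circles female, triangles male), High Drinker in orange and Low Drinker in blue, and the mean with SD beside each group. Crocc, Rsg1 and Dcdc2b spread upward in High Drinker animals with 19, 12 and 15 of 44 above every Low Drinker animal, while the Ift46 groups are narrow and offset.

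Each member kept its direction within sheet set 1 and within sheet set 2. Crocc had a log2 fold change of 1.03 in set 1 and 1.53 in set 2. Dcdc2b had 0.90 and 1.604, and Rsg1 had 0.82 and 1.03. Mns1 had -0.64 and -0.69, Ttc12 had -0.58 and -0.68, and Ift46 had -0.26 and -0.265. Values of the chromosome 9 members were thus close in both sets, while Crocc and Dcdc2b were further apart between lines in set 2. Set 3, with 3 animals per line, was too small for a fit. There Dcdc2b had 1.41, 1.86 and 4.61 CPM in High Drinker animals and 1.75, 3.89 and 4.525 CPM in Low Drinker animals. Rsg1 had 0.570, 1.06 and 1.12 CPM against 0.796, 1.12 and 1.34 CPM. These 2 members therefore had the lower median in High Drinker animals of set 3, opposite to the larger sets. Ttc12 in set 3 had 3.03, 3.87 and 6.48 CPM in High Drinker animals, all below the 7.29, 8.23 and 8.60 CPM of Low Drinker animals.

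**Figure D2:**
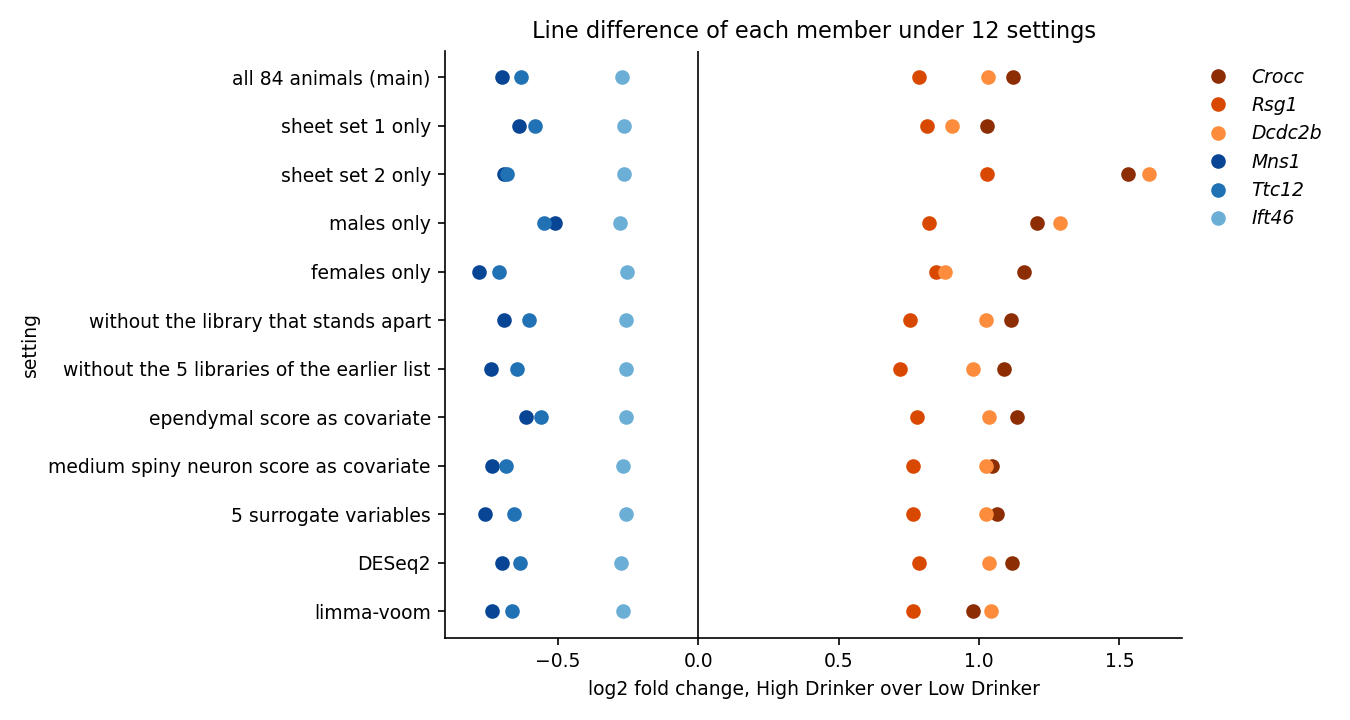
Log2 fold change of High Drinker over Low Drinker for each member (horizontal axis) under 12 ways of fitting or choosing libraries (vertical axis), with 1 colour per member. Chromosome 4 members (orange shades) stay to the right of 0 and chromosome 9 members (blue shades) to the left in every row, and set 2 alone gives the widest values, 1.53 for Crocc and 1.604 for Dcdc2b.

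No member passed the test for a difference between the sexes. The log2 difference of males over females ran from -0.36 ± 0.20 (SE) for Dcdc2b to 0.03 ± 0.04 for Ift46. All 6 edgeR adjusted p were 1.0, 0 members had an unadjusted p under 0.05, and 0.0996% of tested genes passed. DESeq2 and limma-voom called 0 members as well. The line difference did not depend detectably on sex. The interaction, the line difference in males minus that in females, ran from -0.15 ± 0.27 for Rsg1 to 0.26 ± 0.40 for Dcdc2b on the log2 scale, with edgeR adjusted p from 0.873 to 0.935. No gene passed that test (0.0% of those tested, 965 genes at an unadjusted p under 0.05), and 0 members had an unadjusted p under 0.05. Crocc had 140.0, 107, 53.0 and 53.6 CPM at the median in High Drinker females, High Drinker males, Low Drinker females and Low Drinker males. Mns1 had 1.96, 2.19, 4.35 and 3.07 CPM in the same order, so the gap between lines in its medians was wider in females, a difference the interaction test did not separate from the spread.

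Spread between animals was compared between lines by absolute deviations of log2 CPM from the median of line and sex. Crocc deviated more in High Drinker animals, by 0.29 ± 0.10 (SE) on the log2 scale, with an unadjusted limma p = 0.00603 that did not survive adjustment over all genes (adjusted p = 0.979). The other 5 members differed by -0.03 (Ift46) to 0.08 (Mns1), with limma adjusted p of 0.979 or 0.989. In that comparison 0.0117% of tested genes passed.

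Whether the members share one programme was asked from their correlation across animals, on log2 CPM from which line, sex and sheet set had been removed. The 15 pairs were tested by permutation (100000 resamples, two-sided, the smallest p they can give being 1e-05) and adjusted over the 15. Over all animals the 5 pairs with the highest r lay within a chromosome. Crocc and Dcdc2b had Pearson r = 0.687 (Spearman rho 0.665) and Crocc and Rsg1 r = 0.651 (rho 0.606). Rsg1 and Dcdc2b had r = 0.495 (rho 0.468). On chromosome 9, Ttc12 and Ift46 had r = 0.493 (rho 0.437) and Mns1 and Ttc12 r = 0.443 (rho 0.383). For these 5 pairs the permutation p was 1e-05 for r, adjusted 3e-05, and at most 0.00041 for rho, adjusted at most 0.00123. Without the 2 animals farthest from the median, r became 0.673, 0.601, 0.472, 0.475 and 0.388 in the order given. Mns1 and Ift46, 27.6 Mb apart, had r = 0.142 (permutation p = 0.197, adjusted 0.369, rho 0.106).

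Of the 9 pairs across chromosomes, 2 passed for r and none for rho. Rsg1 fell as Ift46 rose (r = -0.297, permutation p = 0.00573, adjusted 0.0143, rho -0.235 with adjusted 0.0787, r = -0.255 without the 2 farthest animals). Crocc and Mns1 had r = 0.251 (permutation p = 0.0216, adjusted 0.0463, rho 0.220 with adjusted 0.0966, r = 0.280 without the 2 farthest). The median r was 0.494 for the 6 pairs on a chromosome and 0.009 for the 9 pairs across. Members on one chromosome are genetically linked, and linkage and shared control of cilium genes cannot be told apart by these correlations.

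The 5 strong pairs kept a positive r within sheet sets 1 and 2, though not always past the threshold. In sheet set 1 (n = 48) r was 0.767 for Crocc and Dcdc2b, 0.646 for Crocc and Rsg1, 0.507 for Rsg1 and Dcdc2b, 0.513 for Ttc12 and Ift46, and 0.569 for Mns1 and Ttc12. In sheet set 2 (n = 30) the same pairs had r of 0.411, 0.582, 0.347, 0.477 and 0.323. Only Crocc and Rsg1 passed there (permutation adjusted p = 0.0078). Within High Drinker animals (n = 44) the 5 pairs had r of 0.763, 0.734, 0.578, 0.502 and 0.490. Within Low Drinker animals (n = 40) they had 0.540, 0.485, 0.323, 0.541 and 0.346. Crocc and Ttc12 had r = 0.294 among High Drinker animals and r = -0.316 among Low Drinker animals, neither past the threshold (permutation adjusted p = 0.0979 and 0.0853), and the difference between the lines was not tested. Pairs that passed within a single line but not over all animals were Mns1 and Ift46 in High Drinker animals (r = 0.412, permutation adjusted p = 0.0133) and Rsg1 and Ttc12 in Low Drinker animals (r = -0.391, permutation adjusted p = 0.0363). Of the pairs across chromosomes that passed over all animals, Crocc and Mns1 had r = 0.405 in High Drinker animals (permutation adjusted p = 0.0134) and -0.072 in Low Drinker animals (0.682). Rsg1 and Ift46 had r = -0.225 (permutation adjusted p = 0.237) and -0.434 (0.0196) in the same order.

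**Figure D3:**
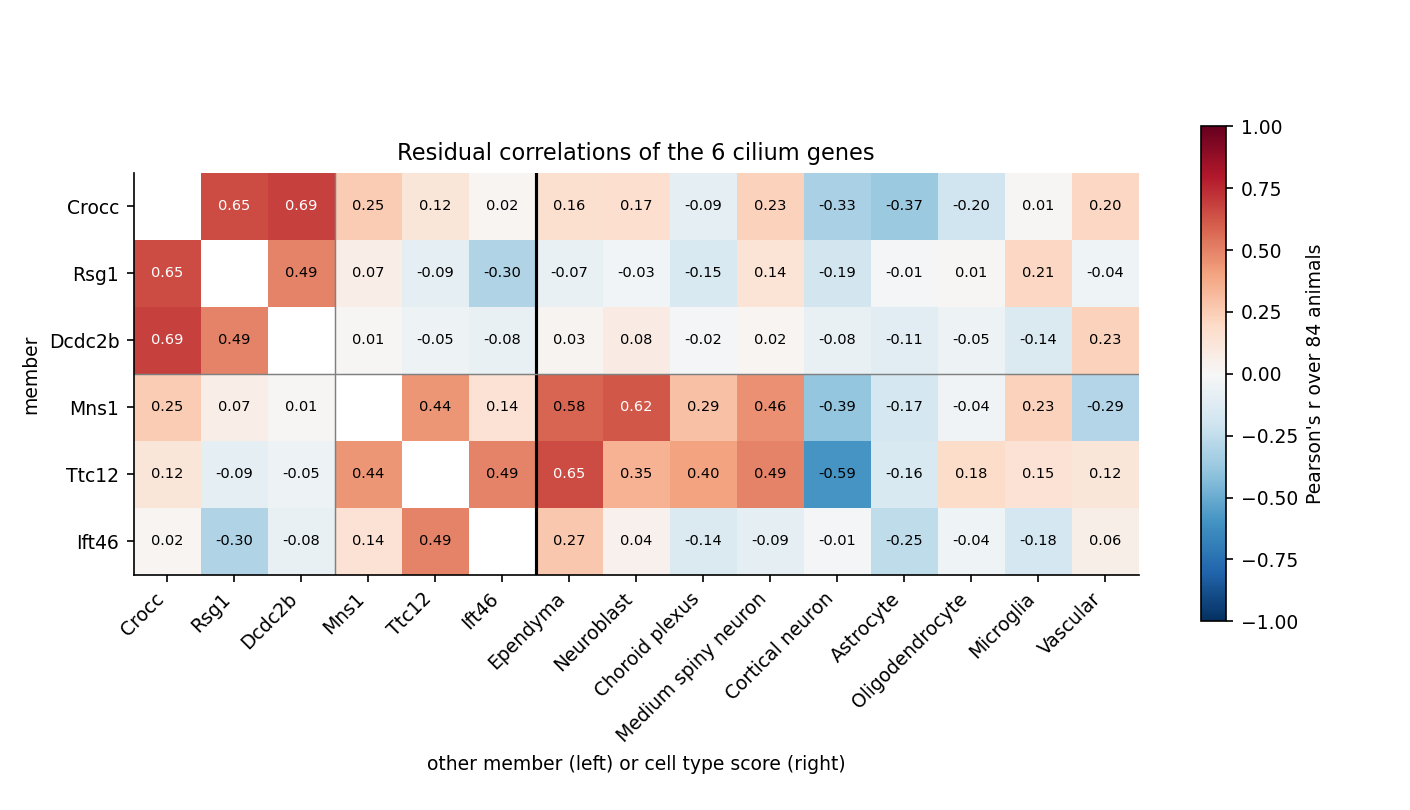
Pearson's r over 84 animals between each member (rows) and the other members (left of the heavy line) or the 9 cell type scores (right), from blue (-1) through white (0) to red (1), on values with line, sex and sheet set removed. The upper left block of chromosome 4 members is red (0.49 to 0.69), and the ependyma column is red for Mns1 (0.58) and Ttc12 (0.65) and near white for Rsg1 (-0.07) and Dcdc2b (0.03).

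Ependymal content was read from a score, the mean standardised log2 CPM of 17 tested ependymal markers out of 18 listed, none of them a member. The most abundant markers were Foxj1, the transcription factor of motile cilia, at 7.44 CPM, Rarres2, which encodes chemerin, at 6.135 CPM, and 1110017D15Rik at 2.67 CPM. Foxj1 ran from 1.18 to 19.6 CPM over the libraries. The summed level of the 17 markers ran from 15.1 to 78.6 CPM in High Drinker animals (median 27.65) and from 13.5 to 81.7 CPM in Low Drinker animals (median 28.3). Ependymal RNA thus varied several-fold between dissections in both lines. The score did not differ detectably between lines (High Drinker minus Low Drinker -0.22 in mean standard units after adjustment for sex and sheet set, group SD 0.802 and 0.837, two-sided permutation p = 0.178, n = 44 and 40). The unadjusted group means were -0.04 and 0.04, and the adjusted difference was -0.32 in set 1 and 0.04 in set 2. Of the named markers, 1110017D15Rik itself was lower in High Drinker animals (2.38 against 2.98 CPM, log2 fold change -0.36, edgeR adjusted p = 0.033). Foxj1 (0.08, edgeR adjusted p = 0.837) and Rarres2 (-0.02, edgeR adjusted p = 0.966) did not pass.

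Mns1 and Ttc12 rose with the ependymal score. In an edgeR fit with line, sex and sheet set, Mns1 rose by 0.39 ± 0.07 (SE, log2 per SD of the score, 1.31-fold) with adjusted p = 2.95e-06. Ttc12 rose by 0.32 ± 0.04 (1.245-fold) with edgeR adjusted p = 6.87e-09. Of all tested genes, 17.3% rose and 21.8% fell with the score under the same rule. Ift46 rose by 0.05 ± 0.02 (edgeR adjusted p = 0.0299), but without Low Drinker 8 it had 0.04 and adjusted p = 0.0791, and in set 1 and set 2 alone adjusted p was 0.174 and 0.197. The chromosome 4 members did not pass: Crocc had 0.15 ± 0.08 (edgeR adjusted p = 0.146), Rsg1 -0.03 ± 0.07 (0.751) and Dcdc2b 0.02 ± 0.11 (0.914).

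The same was seen on the correlation scale, among 54 relations of the members with 9 cell type scores. Ttc12 had r = 0.651 with the ependymal score (rho 0.628, r = 0.639 without the 2 farthest animals) and Mns1 had r = 0.581 (rho 0.602, 0.579 without them). Both had a permutation p of 1e-05, adjusted 9e-05. In sheet sets 1 and 2, r was 0.688 and 0.631 for Ttc12 and 0.597 and 0.620 for Mns1. Ift46 had r = 0.272 (permutation p = 0.012, adjusted 0.0463, rho 0.246 with adjusted 0.0691, r = 0.289 without the 2 farthest animals) and did not pass within either set (r = 0.232 and 0.345). Without Low Drinker 8 it had r = 0.230 with permutation adjusted p = 0.104.

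**Figure D4:**
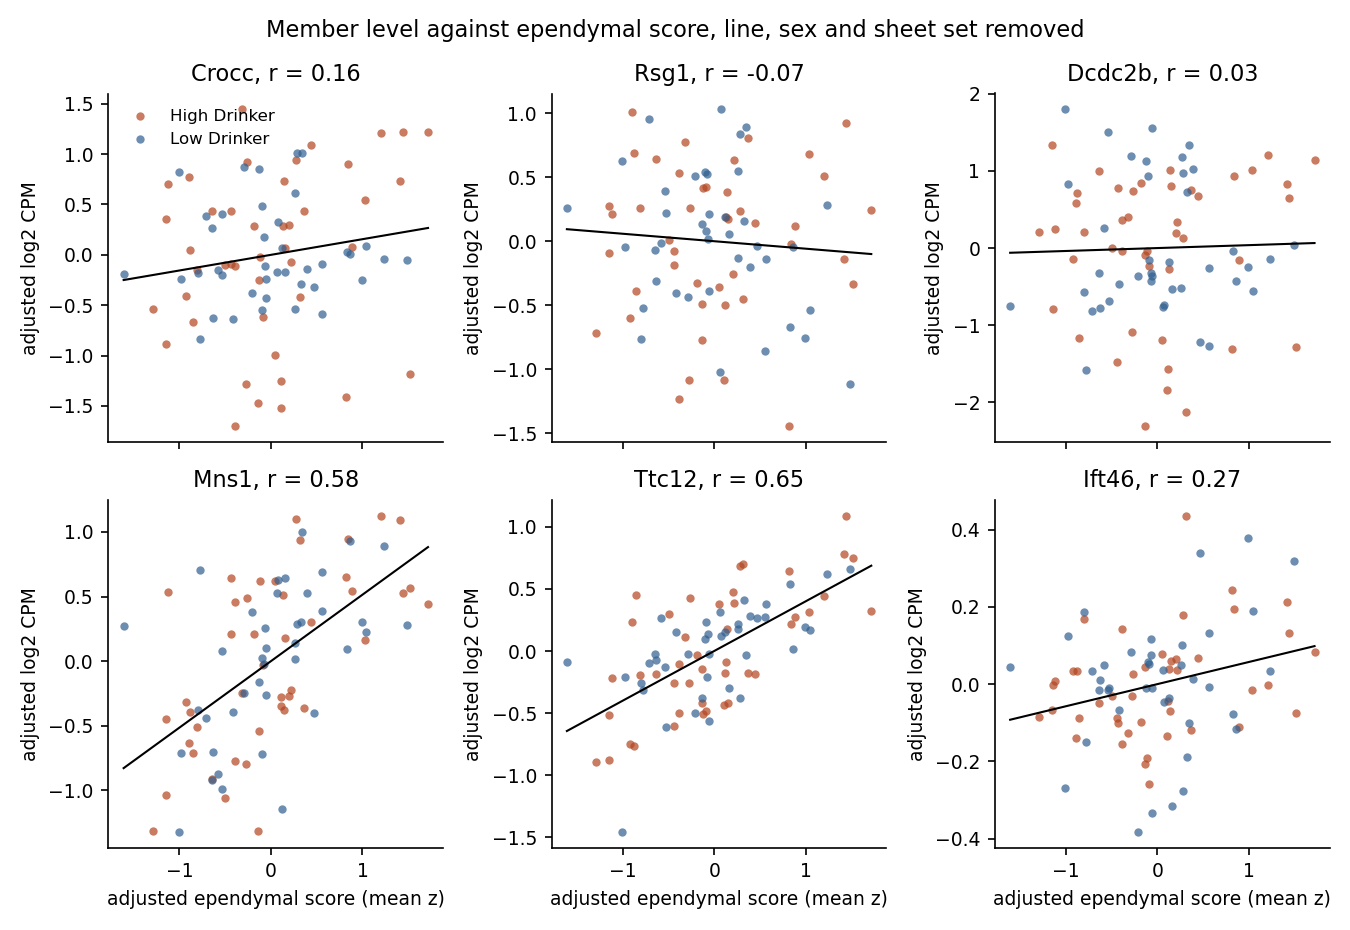
Log2 CPM of each member (vertical axis) against the ependymal score (horizontal axis, mean z of 17 markers), both with line, sex and sheet set removed, 1 point per animal in orange (High Drinker) or blue (Low Drinker), with a least-squares line over all animals. Points follow the line for Mns1 (r = 0.58) and Ttc12 (r = 0.65) in both colours, and scatter evenly for Rsg1 and Dcdc2b.

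Other cell type scores moved with the same members. The ependymal score itself correlated across animals with the scores of neuroblasts and dividing cells (r = 0.642), choroid plexus (0.473), medium spiny neurons (0.451) and cortical glutamatergic neurons (-0.444), as a description. Mns1 had r = 0.621 with the neuroblast score (permutation p = 1e-05, adjusted 9e-05, rho 0.642, r = 0.609 without the 2 farthest), as high as with ependyma, and 0.516 and 0.804 in sets 1 and 2. Ttc12 had r = -0.586 with the cortical score (permutation p = 1e-05, adjusted 9e-05, rho -0.591, r = -0.531 without the 2 farthest), but -0.271 in set 2, where it did not pass. Mns1 also passed with the medium spiny neuron (r = 0.459), cortical (-0.385), choroid plexus (0.293) and vascular (-0.291) scores, with permutation adjusted p at most 0.0309. The vascular relation did not pass for rho (adjusted 0.0691). Ttc12 also passed with the medium spiny neuron (0.493), choroid plexus (0.404) and neuroblast (0.346) scores, with permutation adjusted p at most 0.00745. With the medium spiny neuron score regressed out, r with ependyma was 0.552 for Ttc12 and 0.472 for Mns1. Which of these cell types the Mns1 and Ttc12 RNA came from was not tested.

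Among the chromosome 4 members, only Crocc moved with a cell type score. It had r = -0.369 with the astrocyte score (permutation p = 0.00066, adjusted 0.00396, rho -0.382, r = -0.320 without the 2 farthest), with -0.405 in set 1 and -0.271 in set 2. With the cortical score it had r = -0.327 (permutation p = 0.00223, adjusted 0.0109, rho -0.314, r = -0.319 without the 2 farthest), with -0.281 and -0.340 in the sets, where neither passed. Within High Drinker animals this r was -0.434 (permutation adjusted p = 0.0232) and within Low Drinker animals -0.030 (permutation adjusted p = 0.962), and the difference between the lines was not tested. With the medium spiny neuron score Crocc did not pass for r (0.231, permutation p = 0.0347, adjusted 0.104). It passed for rho (0.272, permutation adjusted p = 0.0466). For Rsg1 and Dcdc2b, 0 of 18 relations passed.

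The line difference was about as large with the ependymal score in the model. With it, the log2 fold change was -0.61 for Mns1 (from -0.70), -0.56 for Ttc12 (from -0.63) and -0.26 for Ift46 (from -0.27). Crocc had 1.14 (from 1.12), Rsg1 0.78 (from 0.79) and Dcdc2b 1.03 with and without it.

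The rest of the cilium machinery was read from 9 gene lists with 181 tested genes besides the members. Of these, 1 was higher and 2 were lower in High Drinker animals, which is 1.657% of the list genes, against 3.937% of all tested genes. Kif17, the homodimeric kinesin-2 motor of cilia and dendrites, was higher at 48.1 ± 13.7 against 35.95 ± 8.20 CPM (SD, n = 44 and 40), a log2 fold change of 0.40 ± 0.08 (SE) with edgeR adjusted p = 0.001275. It lies on chromosome 4, 2.715 Mb from Crocc. Ift20, of the same transport complex as Ift46, was lower by -0.11 ± 0.03 (edgeR adjusted p = 0.0319). Cfap298, needed for dynein arm assembly like Ttc12, was lower by -0.11 ± 0.03 (edgeR adjusted p = 0.0325). Without Low Drinker 8, 1 of the 3 passed, Kif17, while 2.74% of all tested genes passed.

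At the share of all genes, few calls would be found in any list of this length. Of 16 tested genes of transport complex B besides Ift46, Ift20 passed, and Ift172 had 83.9 ± 8.26 and 82.0 ± 9.47 CPM (log2 fold change 0.06, edgeR adjusted p = 0.375). Of 16 rootlet, linker and basal body genes besides Crocc, 0 passed, and Odf2, a basal body appendage gene, had 111 ± 14.7 and 112 ± 13.3 CPM (edgeR adjusted p = 0.994). None of 8 planar polarity effectors besides Rsg1 passed, nor any of 5 doublecortin family genes besides Dcdc2b, where Dclk1 had 1117 ± 192 and 1100.0 ± 190 CPM (edgeR adjusted p = 0.669). Of 42 motile axoneme genes besides Mns1, 0 passed, and their median log2 fold change was -0.08 against 0.00133 over all tested genes. Of 29 dynein and assembly genes besides Ttc12, 1 passed, which was Cfap298. DESeq2 and limma-voom each called 4 of the 181 list genes, while 4.86% and 3.86% of all genes passed.

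The cilium lists differed in how many of their genes moved with the ependymal score. The counts are to be read beside the shares of all tested genes, 17.3% rising and 21.8% falling. Of the 42 axoneme genes, 38 rose and 0 fell with the score (edgeR), with a median of 0.42 log2 per SD, and of the 29 dynein genes 19 rose and 1 fell, with a median of 0.28. Mns1 at 0.39 and Ttc12 at 0.32 thus lay near the medians of the lists they belong to. Transport complex B, the list of Ift46, had 3 rising and 4 falling of 16, with a median of 0.00936. The rootlet list of Crocc had 3 rising and 1 falling of 16, with a median of -0.01. Of 37 primary cilium genes 16 rose and 4 fell, and of 13 genes for the transcriptional control of cilia 6 rose and 1 fell.

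The genes most like each member were taken among tested genes of at least 1 CPM, by the size of Pearson's r over 84 animals, and r is given as a description with no p. For Crocc they were Kif17 (r = 0.870), Arhgef19 (0.867), and Hp1bp3, a chromatin protein (0.746). All 3 lie on chromosome 4, at 2.715, 0.179 and 2.77 Mb. For Rsg1 they were Hp1bp3 (0.712), Padi2, a peptidylarginine deiminase (0.705), and Arhgef19 (0.683), at 2.97, 0.261 and 0.0127 Mb. For Dcdc2b they were the histone deacetylase gene Hdac1 (0.816) and Sfn, encoding a 14-3-3 protein (0.733), at 0.0656 and 3.99 Mb, and Gm10093 on chromosome 17 (r = -0.731). Gm10093 is annotated as a processed pseudogene, and 84.4% of its 1395 stretches of 50 bases also occur in transcripts of other genes, mostly of Hdac1, so counts can be split between the copies.

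The genes most like the chromosome 9 members lay on several chromosomes. Mns1 was most like Col6a5, a collagen VI chain gene on chromosome 9 (r = 0.691, 33.4 Mb away), Fzd5, a Wnt receptor gene on chromosome 1 (0.683), and Cpne9 on chromosome 6 (-0.645). Ttc12 was most like Ubxn10 on chromosome 4 (0.724), the ependymal marker Rarres2 on chromosome 6 (0.718) and Sc5d, a sterol desaturase gene 7.17 Mb away (-0.700). Ift46 was most like P4htm (0.653, 63.8 Mb away), Zfp787 on chromosome 7 (0.639) and Arhgef12 (-0.633, 1.66 Mb away).

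Over the 50 most similar genes of each member, 29, 31 and 32 lay on chromosome 4 for Crocc, Rsg1 and Dcdc2b. For Mns1, Ttc12 and Ift46, 7, 11 and 5 of 50 lay on chromosome 9. Most genes of at least 1 CPM lay elsewhere, 13503 of them off chromosome 4 and 13565 off chromosome 9. Near Crocc, chromosome 4 held 29 (0 to 1 Mb away), 62 (1 to 5 Mb) and 137 (5 to 10 Mb). Farther away it held 197 (10 to 20 Mb), 151 (20 to 40 Mb) and 328 (over 40 Mb). On chromosome 9 the same ranges from Mns1 held 22, 33, 72, 144, 338 and 233. Each chromosome thus held a small part of the genes ranked. The smaller counts are therefore not read as an absence of likeness within chromosome 9. Genes of the ependymal, axoneme or dynein lists made up 12 of 50 for Ttc12 and 4 for Mns1. They made up 1 for Dcdc2b and 0 for Crocc, Rsg1 and Ift46. Those lists held 17, 42 and 29 of the 17071 tested genes. Against all tested ependymal markers, the median absolute r was 0.571 for Ttc12 and 0.514 for Mns1, compared with 0.244 and 0.191 for genes on other chromosomes. For Crocc, Rsg1 and Dcdc2b it was 0.137, 0.065 and 0.038, compared with 0.171, 0.120 and 0.101. Genes share libraries, and r across genes is not a set of independent values.

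**Figure D5:**
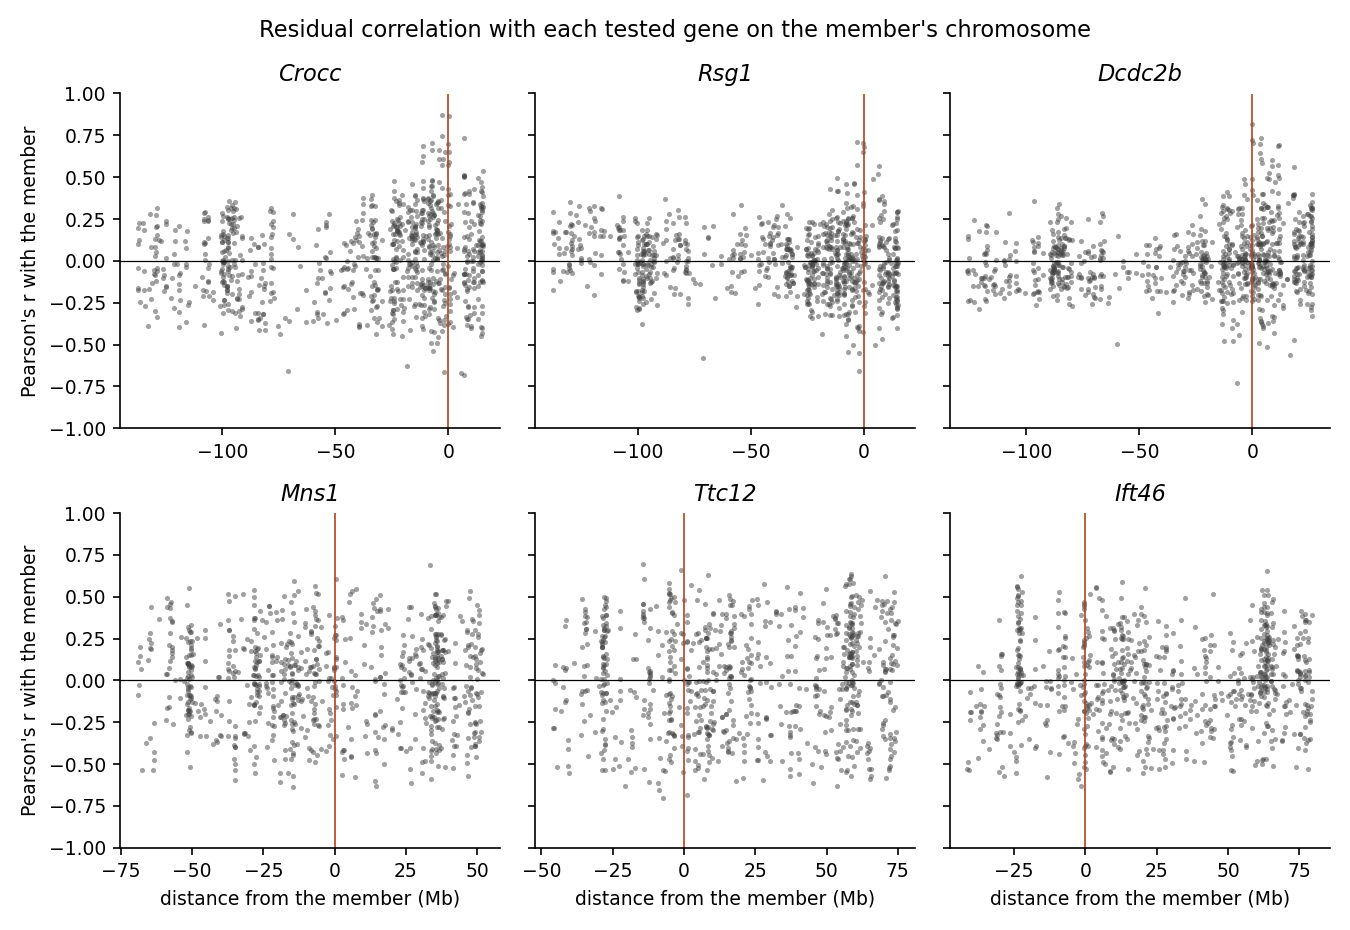
Pearson's r of each member with every tested gene of at least 1 CPM on its own chromosome (vertical axis) by distance from the member in Mb (horizontal axis, member at the red line), over 84 animals. The values reach 0.870 for Crocc. The upper quartile of absolute r was compared between genes 1 to 5 Mb and over 40 Mb away. It was 0.370 and 0.249 for Crocc, 0.307 and 0.184 for Rsg1, and 0.245 and 0.166 for Dcdc2b. On chromosome 9 it was 0.392 and 0.319 for Mns1, 0.393 and 0.405 for Ttc12, and 0.395 and 0.301 for Ift46.

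Over all tested genes 3.937% passed the line test in either direction, and the counts of genes near a member are to be read beside that share. Within 1 Mb of Crocc, 6 of 38 tested genes passed (15.8%), all higher in High Drinker animals, while within 2 Mb 11 of 54 passed, 6 higher and 5 lower. Near Mns1 (3.57%) and Dcdc2b (6.0%) the share within 1 Mb was close to that of all genes. Within 1 Mb of Rsg1 7 of 40 passed, 6 higher and 1 lower. Crocc and Rsg1 are in each other's window, and each is counted among the genes that passed near the other, although the line difference chose both. Of their shared neighbours, Padi2 was higher by 0.75 on the log2 scale (edgeR adjusted p = 3.01e-05) and Arhgef19 by 0.55 (edgeR adjusted p = 1.19e-06). Spata21, 27.8 kb from Crocc, had a mean of 0.677 against 0.478 CPM (log2 fold change 0.50, edgeR adjusted p = 0.01965). Near Dcdc2b 3 of 50 passed: Fam167b (-0.465, edgeR adjusted p = 0.00927), Hdac1 (0.20, edgeR adjusted p = 0.0148) and Khdrbs1, an RNA-binding protein gene (0.15, edgeR adjusted p = 0.00274).

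Within 1 Mb of Mns1, 1 of 28 passed, ENSMUSG00000103453, which starts 1.08 kb after the end of Mns1 (log2 fold change -0.58, edgeR adjusted p = 0.0156, r = 0.832 with Mns1). Near Ttc12, 4 of 12 passed, 2 in each direction. The mitotic checkpoint gene Zw10 was higher (0.24, edgeR adjusted p = 9.78e-08) and the RNA exonuclease gene Rexo2 lower (-0.18, edgeR adjusted p = 6.22e-05). Near Ift46, 5 of 45 passed, 3 higher and 2 lower, among them the sodium channel subunit gene Scn2b (0.12, edgeR adjusted p = 0.0234) and Ccdc84 (-0.22, edgeR adjusted p = 0.00704).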

How the data were processed

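The authors deposited 1 table of unnormalised read counts, with genes in rows and animals in columns. The tools named in the submitters' processing notes are STAR, featureCounts, Subread, FastQC and edgeR, with build mm10. Their versions and the counting settings are not given in the sources. Per the labels' protocols, cDNA from Trizol RNA was amplified with an Ovation kit before Illumina library preparation, 6 libraries shared a lane, and single-end reads of 100 bp were made. Amplified cDNA holds duplicates that counts cannot tell apart. Total counts were 22190363 to 41300401 per library, so spread between animals sets the precision of the more abundant members, and counting error matters most for Rsg1.

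The members and the gene lists were chosen with earlier results of these data known. The edgeR tests were fitted over all 17071 genes kept by filterByExpr (edgeR 4.0.16, R 4.3.3, TMM, quasi-likelihood, with sheet set, sex and line), with Benjamini-Hochberg adjustment at 0.05. CPM are TMM-scaled. Correlations used log2 CPM with a prior count of 2. Spread was tested with limma 3.58.1 over the same genes and with the same adjustment. Permutations were drawn 100000 times, within sex and set for the score by line. Permutation p of correlations were adjusted over the 15 pairs or the 54 relations with scores. Alternatives used DESeq2 1.42.0, sva 3.50.0, other filters, sets, sexes and covariates. Plots were made with matplotlib 3.10.9 and the other steps with scipy 1.17.1, pandas 2.3.3 and numpy 2.4.6 in Python 3.11.15. The edgeR and limma tests, but not the permutation tests, were run on simulated data.

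Genes named are the 6 members, the 3 most correlated genes of at least 1 CPM for each, up to 4 called genes or else the most abundant genes of each cilium list, up to 4 called neighbours within 1 Mb, and the 3 most abundant ependymal markers. Not all that the rule takes are printed. Tex9 and Tmem234 were added for their overlap.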

Additional observations from a re-analysis of the deposited data

How the results depend on the processing

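The line difference of the 6 members kept its sign under all 15 alternatives run for each, with log2 fold changes of 0.98 to 1.53 for Crocc, 0.72 to 1.03 for Rsg1, 0.88 to 1.604 for Dcdc2b, -0.78 to -0.51 for Mns1, -0.71 to -0.55 for Ttc12 and -0.28 to -0.25 for Ift46. The count of other cilium genes past the line test was 3 with all libraries, and the share of all genes that passed was 3.937%. That share is given in brackets for each alternative. The count was 24 with 5 surrogate variables (14.5%), 10 higher and 14 lower. As covariates, the medium spiny neuron score gave 8 (5.99%) and the ependymal score 7 (3.98%). Without Low Drinker 8 the count was 1 (2.74%). It was also 1 without the 5 libraries of an earlier list (2.49%), a setting chosen after seeing the data. It was 1 in sheet set 2 alone (0.459%), and 0 for males (0.652%), for females (0.212%) and for sheet set 1 alone (0.459%). The last 4 settings held far fewer animals, and the cause of these changes was not tested. Kif17 passed in every setting that gave a call. Of the 15 pairs of members, 7 passed with all libraries and 1 in sheet set 2. Crocc and Mns1 turned to r = -0.072 in Low Drinker animals. Of the 54 relations with cell type scores, 14 passed with all libraries, 8 among Low Drinker animals, and 9 and 5 within sheet sets 1 and 2. Sex, interaction and spread gave 0 members under every alternative, and the ependymal score of the lines stayed short of the threshold under all 6. No paired analysis was possible because the labels give no replicate numbers that animals of the lines share. Low counts limit Rsg1, and Tex9 shares 24.75% of the Mns1 exon length in the deposited table and 51.3% of 50-base stretches in GENCODE M21 transcripts.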
